A study of Mus musculus with 11 samples.

Results

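The genes of the interleukin 2 and STAT5 axis were followed in mouse CD4 T cells from draining lymph nodes. The set holds 10 genes chosen by name: Il2, the receptor genes Il2ra, Il2rb, Il2rg and Il7r, the transcription factor genes Stat5a and Stat5b, and the feedback genes Cish, Socs1 and Socs2. All 10 were present in the bulk table of 29224 genes and in the single-cell matrix of 31053 genes. The study concerns Sostdc1, a secreted antagonist of BMP and Wnt signalling, in follicular helper T cells (Tfh) and follicular regulatory T cells (Tfr).

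Values of 3 of the 11 samples were used. The library labelled KO came from Tfr cells of C57BL/6 mice labelled as homozygous for the Sostdc1 knockout, and the library labelled WT from Tfr cells of wild-type C57BL/6 mice. Both were sorted as CXCR5+ PD1+ GITR-high cells, with no stain for Foxp3 named, and each group had 1 library. The single-cell library held CD4+ CD44+ T cells of C57BL/6 mice heterozygous for the Sostdc1-EGFP reporter. No age, treatment or number of pooled animals was given in the labels used, and the other 8 samples were not analysed here.

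IL-2 binds a receptor made of an alpha chain (Il2ra, CD25), a beta chain (Il2rb) and the common gamma chain (Il2rg), and signals through JAK1 and JAK3 to STAT5. STAT5 switches on its own brakes, the SOCS family genes Cish, Socs1 and Socs2. Activated conventional T cells are the main source of IL-2, while regulatory T cells (Treg) carry much CD25 and depend on the cytokine. Strong IL-2 and STAT5 signalling opposes the Tfh programme and its regulator Bcl6, and CD25 is known to be low on many Tfr cells.

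The promoter windows of RefSeq (GRCm38.p6, 250 bases before the start site and the 50 from it) were searched for the palindromic motif bound by STAT factors, TTCNNNGAA, which reads the same on both strands, and 8 of the 10 genes had a window. The 8 genes had 10 windows in all, since Stat5a and Stat5b each have 2 start sites. The motif occurred in 2 of the 10 windows and in 8.30% of 32851 windows of all genes. Cish held 2 matches, and 2 or more were found in 0.457% of all windows. They began at positions 1 and 12 of the transcript, and this stretch is shown because Cish was among the genes that separated the cell gates most; capitals mark the matches.

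Cish, chr9:107296659-107296678, plus strand: TTCCTGGAAagTTCTTGGAA

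Il7r held 1 match, and its upstream stretch is shown because Il7r was the gene that differed most in level between Tfr and Treg gates. Capitals mark the match.

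Il7r, chr15:9529877-9530126, minus strand: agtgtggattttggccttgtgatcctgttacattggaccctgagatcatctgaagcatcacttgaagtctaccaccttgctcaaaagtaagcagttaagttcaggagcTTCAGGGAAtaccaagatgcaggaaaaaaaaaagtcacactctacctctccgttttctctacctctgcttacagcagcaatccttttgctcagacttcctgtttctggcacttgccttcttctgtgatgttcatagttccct

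For Il2, the core that NFAT factors bind, GGAAA, was searched on both strands, so that TTTCC counts as a match. The core is short and occurred in 61.3% of all windows. The AP-1 motif TGANTCA occurred in 7.81% of all windows and in 0 of the 10 windows of these genes. The Il2 stretch is shown because Il2 had the largest ratio of these genes between the bulk libraries; capitals mark GGAAA or TTTCC.

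Il2, chr3:37125955-37126204, minus strand: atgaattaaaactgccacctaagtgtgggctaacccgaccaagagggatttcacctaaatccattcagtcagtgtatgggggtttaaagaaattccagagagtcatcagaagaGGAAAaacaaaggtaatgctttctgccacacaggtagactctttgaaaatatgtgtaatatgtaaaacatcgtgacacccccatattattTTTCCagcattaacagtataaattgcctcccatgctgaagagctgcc

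A match of letters is a description of the window and does not show that a factor binds there.

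The bulk libraries held 27777625 (labelled KO) and 18076300 (labelled WT) counts over genes, and values are given as CPM, the count of a gene relative to the total of its library. The check of the labels came first. Sostdc1 had 458 counts (16.5 CPM, labelled KO) and 4 counts (0.221 CPM, labelled WT), which goes against the labels unless the counted part of the gene lies outside the deletion; the place of the deletion is not known from the labels. Sex-linked transcripts differed too, with 34234 and 39 counts of Xist and 6 and 3557 counts of Ddx3y in the libraries labelled KO and WT. Genotype label, sex-linked transcripts and library cannot be told apart with 1 library each, and every direction below is that of the library as labelled. Foxp3 had 1164 CPM (labelled KO) and 1471 CPM (labelled WT), and Ctla4, Ikzf2 and Cd4 were all abundant in both. Of 5 myeloid genes, 4 had higher CPM in the library labelled KO, and Lyz2 had 719 and 159 counts (ratio 2.94 of CPM) there and in the library labelled WT. B cell genes were low in both, as with 46 and 16 counts of Ms4a1 (labelled KO, labelled WT). The part of these cells in the results below was not tested.

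Between the bulk Tfr libraries, Il2 RNA stood far apart upward and Socs1 RNA apart downward, while both Stat5 genes lay close together. With a size rule of 2-fold on log2(CPM + 1), 1 of the 10 genes was higher in the library labelled KO (Il2) and 1 was lower (Socs1). Of the 10194 genes that reached 5 CPM in either library, 2.6% (265) were higher by this rule and 9.12% (930) were lower; with TMM factors 414 were higher and 688 were lower. The median log2 ratio was 0.07 for the 10 genes and -0.04 for all genes. No test of the conditions is possible with 1 library each, and the intervals given cover counting error only. In these bulk samples more cells with a transcript and more RNA per cell cannot be told apart.

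The cytokine gene Il2 had 48.0 CPM (1333 counts, labelled KO) and 4.48 CPM (81 counts, labelled WT). The ratio was 10.7 (95% interval 8.55 to 13.6), and the log2 ratio of 3.16 lay at percentile 99.9 of all genes compared. The lower of these levels was still above the one that 3 counts give in that library (0.166 CPM). The other cytokines of the common gamma chain family with enough RNA went the same way. Il4, a product of Tfh cells in lymph nodes, had 46.5 CPM (labelled KO) and 1.66 CPM (labelled WT), a ratio of 28.0. Il21, the Tfh cytokine that acts on germinal centre B cells, had 82.8 CPM (labelled KO) and 4.09 CPM (labelled WT), a ratio of 20.2. Il9 had 88 counts and 1 count in the libraries labelled KO and WT, below the CPM minimum in both. RNA of Il2, Il4, Il21 and Sostdc1 was thus higher in 1 and the same library, and how far other T cells in the sort account for it was not tested.

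The receptor chains differed less. Il2ra had 4002 CPM (labelled KO) and 2637 CPM (labelled WT), a ratio of 1.52 (1.5 to 1.53). Il2rb, the chain shared with the IL-15 receptor, had 1206 CPM (labelled KO) and 1109 CPM (labelled WT), a ratio of 1.09. Il2rg, the common gamma chain, had 330.4 CPM (labelled KO) and 165 CPM (labelled WT). Its ratio of 2.00 (1.92 to 2.09) lay at the threshold: on log2(CPM + 1) it fell just short, and with TMM factors its log2 ratio was 1.15. Il2rg is X-linked, and the libraries differed in sex-linked transcripts as given above. Il7r, the IL-7 receptor alpha chain that pairs with the same gamma chain, had 172 CPM (labelled KO) and 337 CPM (labelled WT), a ratio of 0.510 (0.491 to 0.529), also next to the threshold. Among the receptor genes, the 3 chains of the IL-2 receptor all had the higher CPM in the library labelled KO and Il7r the lower.

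The 2 STAT5 genes were close to level between the libraries. Stat5a had 702 CPM (labelled KO) and 697 CPM (labelled WT). Stat5b had 450.2 CPM (labelled KO) and 569 CPM (labelled WT), a ratio of 0.791. These 2 genes are neighbours on chromosome 11. None of the 5 other STAT genes passed 2-fold in either direction: Stat4, which carries the IL-12 signal, had a ratio of 1.81 and Stat2, a factor of type I interferon signalling, of 0.529.

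The feedback genes did not move together. Cish, a direct STAT5 target whose product blocks cytokine receptors, had 559 CPM (labelled KO) and 308 CPM (labelled WT), a ratio of 1.82 (1.76 to 1.87); with TMM factors its log2 ratio passed the threshold at 1.01. Socs1, the inhibitor of JAK kinases, had 34.3 CPM (954 counts, labelled KO) and 163 CPM (2942 counts, labelled WT). Its ratio of 0.211 (0.196 to 0.227) lay at percentile 0.981 of all genes compared. Socs2 had 77.4 CPM (labelled KO) and 116 CPM (labelled WT), a ratio of 0.666. So Cish had the higher level in the library labelled KO, and Socs1 and Socs2 had the lower one. Socs2 and Il2ra overlap the non-coding genes Gm33230 and Gm39760, whose reads cannot be told apart without strand information. Socs1 is a short gene with a genomic span of 1729 bases in RefSeq. Among the 237 compared genes with a span no longer than that, 11.8% were higher and 16.9% lower by the size rule, both shares above those of all genes; the part of gene length in the Socs1 value was not tested.

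**Figure D1:**
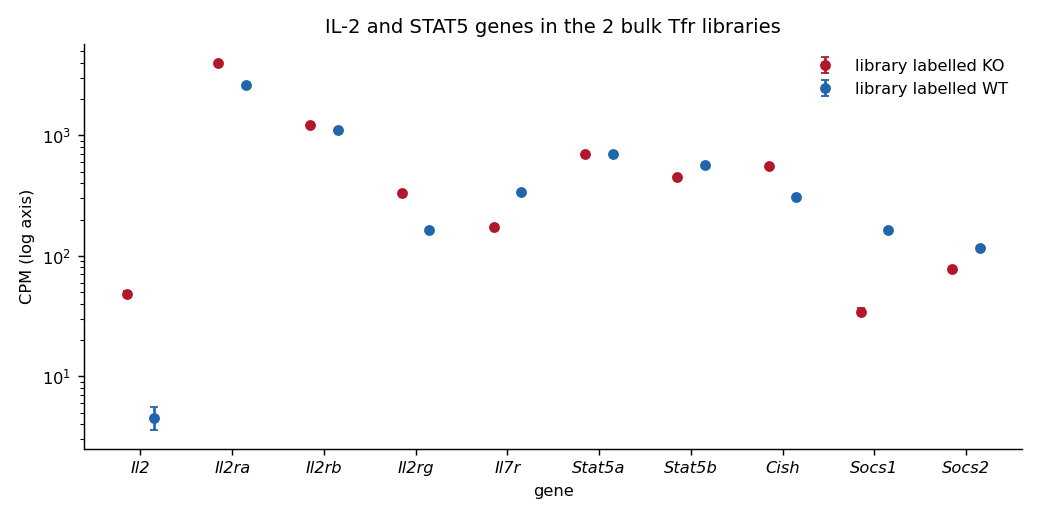
CPM of the 10 genes (log axis) in the bulk Tfr libraries labelled KO (red, left) and WT (blue, right), with exact Poisson 95% intervals that are mostly smaller than the points. Il2 stood at 48.0 CPM (labelled KO) and 4.48 CPM (labelled WT), and Socs1 at 34.3 CPM (labelled KO) and 163 CPM (labelled WT).

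**Figure D2:**
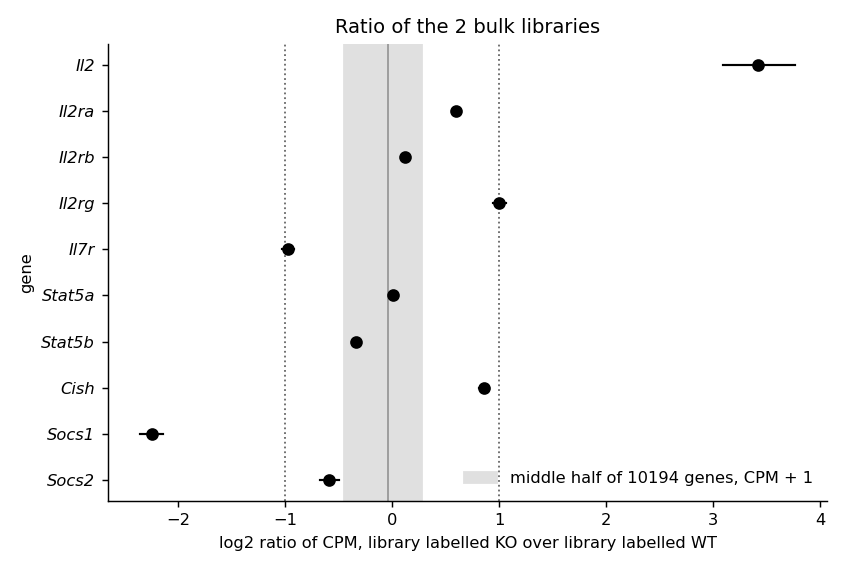
Log2 ratio of CPM, library labelled KO over library labelled WT, for each of the 10 genes, with 95% counting intervals as lines. The shaded band runs from the lower to the upper quartile of all genes compared, from -0.45 to 0.28 on log2(CPM + 1), and dotted lines mark 2-fold. Il2 and Socs1 lie far outside the band, Il2rg and Il7r at the dotted lines, and Stat5a, Stat5b and Il2rb within the band.

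Genes around the axis gave the setting, and their counts stand beside 2.6% higher and 9.12% lower among all genes compared. Of 11 genes of JAK kinases and signal adaptors compared, 0 were at least 2-fold higher and 2 lower in the library labelled KO. These were Jak3, the kinase on the gamma chain, with 153 CPM (labelled KO) and 545 CPM (labelled WT), and Tyk2, a JAK kinase of interferon and IL-12 receptors, with a ratio of 0.406. Jak3 overlaps Insl3, and without strand information their reads cannot be told apart. The T cell kinase Lck had a ratio of 1.44 and the lymphocyte PI3 kinase subunit Pik3cd one of 0.527. Of 6 genes of the gamma chain family compared, 2 were higher (Il4, Il21) and 1 lower: Crlf2, the TSLP receptor chain, had 8.21 CPM (labelled KO) and 271 CPM (labelled WT). The IL-4 receptor gene Il4ra had a ratio of 1.18.

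Other listed brakes on cytokine signalling differed by less than Socs1, some lower and some higher in the library labelled KO. None of 12 further brake genes was 2-fold apart in either direction; Socs5 had a ratio of 0.532, Pias3 0.526, Socs3 0.554 and the phosphatase gene Ptpn6 1.52. Of 15 genes known as STAT5 targets, 2 were higher and 1 was lower, beside 2.6% and 9.12% of all genes compared. The survival gene Bcl2 had 23.9 CPM (labelled KO) and 6.42 CPM (labelled WT), and Lta, which encodes lymphotoxin, 52.7 and 21.1 CPM. The cyclin gene Ccnd3 had 19.9 CPM (labelled KO) and 52.0 CPM (labelled WT), and the kinase gene Pim3 had a ratio of 0.510. Of 20 genes for factors that act on the Il2 promoter, 0 were higher and 3 were lower, beside the same shares of all genes. Junb, an AP-1 subunit, had 56.3 CPM (labelled KO) and 1380.04 CPM (labelled WT). Jun had 17.8 CPM (labelled KO) and 71.3 CPM (labelled WT), and the zinc-finger factor gene Egr3 had a ratio of 0.376. Crem, which encodes a repressor of Il2 transcription, had a ratio of 1.82. Thus RNA of the AP-1 subunits Jun and Junb was lower in the library in which Il2 RNA was higher. The other AP-1 genes listed, Fos (ratio 0.899) and Fosl2 (0.817), lay within 2-fold, and were named after their values were seen. Bcl6, the Tfh regulator opposed by STAT5, had 20.3 CPM (labelled KO) and 17.2 CPM (labelled WT), a ratio of 1.18 (1.03 to 1.36).

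In the single-cell library the same genes were read by marker gates. The matrix held 15002 barcodes and 106127466 UMIs (unique molecular identifiers, 1 per captured transcript), with 0 repeated barcodes, and 11808 cells were kept. T cell gates required a UMI of a Cd3 gene. Tfr cells had at least 1 UMI each of Foxp3, Cxcr5 and Pdcd1 (55 cells, median 7120 UMIs per cell), and Treg cells had Foxp3 without Cxcr5 (1514 cells, median 5400.5). Tfh cells had Cxcr5 and Pdcd1 without Foxp3 (666 cells, median 7080), and the other Foxp3-negative cells are called other T (6924 cells, median 5676). B cells caught in the sort (471 cells, median 4693) served as background for free RNA. Levels are CPM of the UMIs summed over a gate. All cells come from 1 library, so there is no replicate, and the intervals cover counting error only. Ctla4 had 353 CPM in Tfr, 402 in Treg, 92.1 in Tfh and 60.3 in other T cells, and Bcl6 33.1, 6.09, 73.3 and 11.6 CPM in the same gates. Ctla4 was thus higher in the Foxp3-positive gates and Bcl6 in the Cxcr5+ Pdcd1+ gates. The Bcl6 level of the Tfr gate rested on 18 UMIs, 16 of them in cells with a single Foxp3 UMI. Ikzf2, which is high in many Treg cells, had 126 CPM in the other T gate and 899.9 CPM in Treg cells; how many of the other T cells are Treg cells without a captured Foxp3 UMI was not tested. Of the genes of CD8 T cells and natural killer cells checked, Cd8a and Ncr1 had 0 UMIs in the Tfr and Tfh gates. Cd8b1 had 14.7 CPM in Tfr, 17.8 in Treg, 9.07 in Tfh and 28.5 in other T cells. Klrb1c had 14.7 (8 UMIs), 0.734, 25.9 and 4.38 CPM in the same gates. Lyz2 had 0 UMIs in the Tfr gate, but it is 1 of the myeloid genes that the T cell gates limited to under 3 UMIs.

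The Tfr gate had less RNA of Il2ra, Il7r, Cish and Socs2 than the Treg gate, and Il2rb, Il2rg, Stat5a, Stat5b and Socs1 lay within 1.5-fold. Of the 10 genes, 0 were at least 2-fold higher and 4 were lower in Tfr over Treg. Of 10222 genes with 20 or more UMIs in both gates together, 5.37% were higher by that size and 10.8% were lower. Il2ra had 103 CPM (77.8 to 134) in Tfr and 237 CPM (228 to 247) in Treg cells, a ratio of 0.434 (0.327 to 0.566). Il7r had 49.7 CPM in Tfr and 274 CPM in Treg cells, a ratio of 0.181 (0.119 to 0.264). Cish had 40.5 CPM in Tfr and 93.7 CPM in Treg cells, a ratio of 0.432 (0.269 to 0.658). Socs2 had 22.1 CPM (12 UMIs) in Tfr and 60.8 CPM in Treg cells, a ratio of 0.363 (0.187 to 0.640). Il7r kept its 2-fold distance in all 9 alternative settings, with ratios from 0.154 to 0.353. The ratio ranged from 0.434 to 0.858 for Il2ra, from 0.432 to 0.771 for Cish and from 0.178 to 0.518 for Socs2, and so came within 2-fold in some settings. Leaving out the 12 Tfr cells with an Il21 or Sostdc1 UMI, a setting chosen after seeing the data, gave 0.575 for Il2ra, 0.588 for Cish, 0.518 for Socs2 and 0.239 for Il7r.

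The remaining genes were close in these gates at the main settings. Il2rb had 197 CPM in Tfr and 238 CPM in Treg cells, and Il2rg 234 and 269 CPM. Stat5a had 27.6 CPM (15 UMIs) in Tfr and 28.3 CPM in Treg cells, and Stat5b 38.6 and 46.8 CPM. Socs1 had 136 CPM in Tfr and 162 CPM in Treg cells. The interval of the ratio held 1 for each of Il2rb, Il2rg, Stat5a, Stat5b and Socs1. For Stat5a it ran from 0.538 to 1.64 and for Stat5b from 0.506 to 1.28, so that differences of that size were not detectable with 55 Tfr cells. Over the alternative settings the Stat5a ratio ranged from 0.796 to 1.90, the highest with at least 2 Foxp3 UMIs. The Stat5b ratio ranged from 0.484, with each cell thinned to 3000 UMIs, to 1.13.

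The Tfr gate was not uniform, and its Foxp3 content divided the values. Of its 55 cells, 35 had a single Foxp3 UMI and 20 had at least 2. The 35 cells held all 31 Il21 UMIs and all 33 Sostdc1 UMIs of the gate, and all 4 of its Il2 UMIs. Their Il2ra level was 48.9 CPM (29.0 to 77.4) and their Cish level 19.0 CPM. The 20 cells with at least 2 Foxp3 UMIs had 216 CPM of Il2ra (153 to 297), 85.3 CPM of Cish and 96.7 CPM of Il7r. Cells with more Foxp3 RNA thus had more RNA of Il2ra, Cish and Il7r within the gate. The same held in Treg cells for Il2ra and Cish but not for Il7r: Treg cells with at least 2 Foxp3 UMIs had 295 CPM of Il2ra, 111 of Cish and 274 of Il7r, and those with 1 had 148, 67.9 and 274 CPM.

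The Tfr cells with at least 2 Foxp3 UMIs were set against Treg cells with at least 2. They had Il2ra at a ratio of 0.731 (0.516 to 1.01), Cish at 0.771 (0.429 to 1.28) and Il7r at 0.353 (0.205 to 0.567). Tfr cells with 1 Foxp3 UMI, against Treg cells with 1, had Il2ra at 0.330 (0.194 to 0.526), Cish at 0.281 (0.112 to 0.586) and Il7r at 0.0991 (0.0474 to 0.183). These pairs of groups were not matched in Foxp3 level. Foxp3 CPM itself had a ratio of 0.838 (0.653 to 1.06) at 2 or more UMIs and 0.551 (0.380 to 0.774) at 1. A Foxp3 UMI was found in 7.63% of 721 Cxcr5+ Pdcd1+ T cells and in 2.76% of the B cells, which should lack it. At least 2 were found in 2.77% of the 721 cells and in 0 of the 471 B cells, with an exact upper limit of 0.780%. Foxp3 RNA was therefore found at 1 UMI per cell in cells that should lack it. Whether it was free RNA, and its part in the 35 cells, was not tested. The lower Il7r level was seen in both groups of Tfr cells, whereas the intervals for Il2ra and Cish reached 1 in the cells with at least 2 Foxp3 UMIs.

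**Figure D3:**
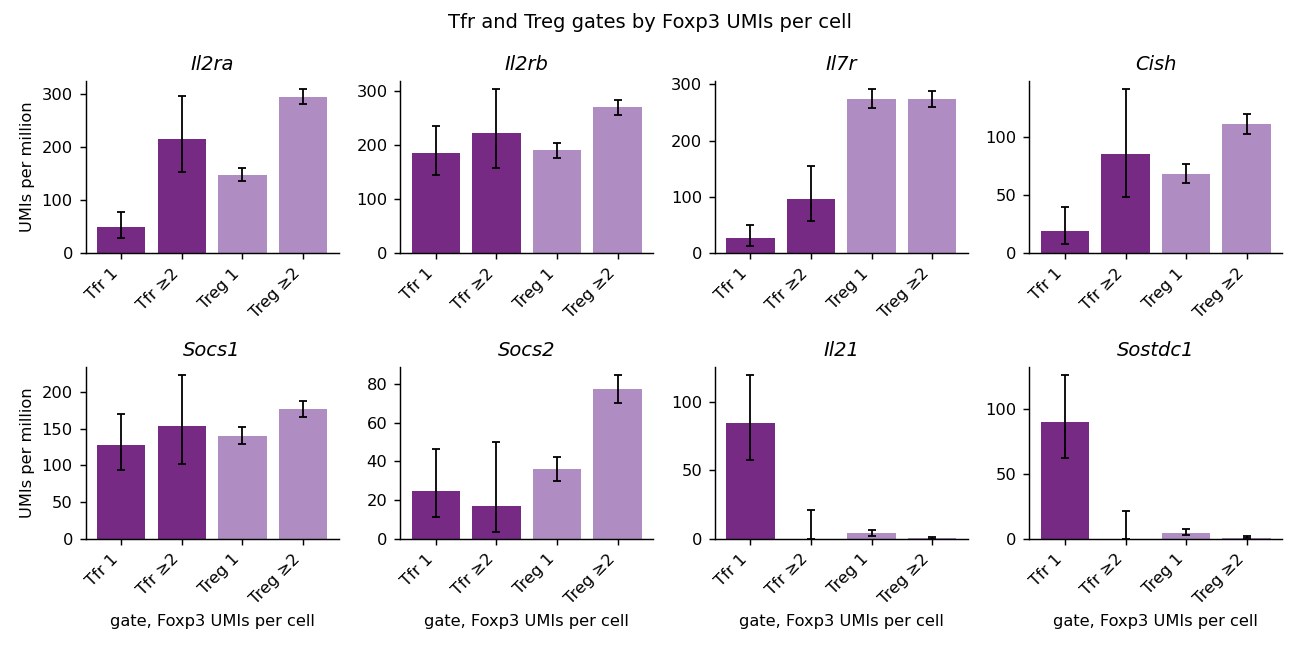
CPM (from UMIs) in Tfr cells (dark) and Treg cells (light) with 1 or with at least 2 Foxp3 UMIs, with exact Poisson 95% intervals. Il21 and Sostdc1 were found in Tfr cells with 1 Foxp3 UMI and not in those with 2 or more; Il2ra was 48.9 and 216 CPM in these 2 groups of Tfr cells, and Il7r was lower in both than in the Treg cells.

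Tfh cells also had less RNA of Il2ra, Il7r, Cish and Socs2, here against other T cells. Against other T cells, 0 of the 10 genes were at least 2-fold higher in Tfh cells and 4 were lower, and this count of 4 was the same in the 7 alternative settings that changed these gates or their values. Of 11978 genes compared, 7.96% were higher by that size and 6.41% were lower. Il2ra had 7.44 CPM (5.34 to 10.1) in Tfh and 24.2 CPM in other T cells, a ratio of 0.308 (0.219 to 0.420). Il7r had 42.3 CPM in Tfh and 272 CPM in other T cells, a ratio of 0.156 (0.136 to 0.177). Cish had 4.72 CPM in Tfh and 20.8 CPM in other T cells, a ratio of 0.227 (0.147 to 0.335). Socs2 had 1.81 CPM (10 UMIs) in Tfh and 10.6 CPM in other T cells, a ratio of 0.172 (0.0817 to 0.319). Cish and Socs2 in Tfh cells were at the level of the B cells, which had 2.80 CPM of each, so a level above background was not detectable there. Il2ra in B cells was 2.45 CPM (0.984 to 5.05), and the interval of the Tfh level lay above it. A further 3 genes were higher in Tfh cells by less than 2-fold: Socs1 had 205 CPM in Tfh and 115 CPM in other T cells (ratio 1.78, 1.67 to 1.90), Il2rb 110 and 79.3 CPM (ratio 1.38), and Stat5a 30.7 and 23.2 CPM (ratio 1.32). Lower Cish and Socs2 thus stood beside higher Socs1 in Tfh cells. Il2rg and Stat5b lay within 1.1-fold.

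At equal depth the intervals of the share of cells with Il7r lay apart between Tfr and Treg cells, and those for Il2ra overlapped. With 54 Tfr cells such an overlap does not show that the shares are equal. Each cell was thinned to 3000 UMIs, which left out 1 Tfr, 141 Treg, 17 Tfh, 565 other T and 41 B cells of lower depth. An Il2ra UMI was found in 25.9% of Tfr, 39.3% of Treg, 2.00% of Tfh and 5.08% of other T cells, and in 0.698% of B cells. The intervals of Tfr (14.96 to 39.7) and Treg cells (36.7 to 41.9) overlapped. The thinned Il2ra level had a ratio of 0.858 for Tfr over Treg. Without thinning it was 0.434 for summed UMIs and 0.619 as a mean over cells. Thinning and the mean over cells both give each cell equal weight. The thinned value rests on 1 random draw, with 33 Il2ra UMIs in Tfr cells. The intervals of Tfh (1.07 to 3.40) and other T cells (4.55 to 5.65) did not overlap. Without thinning the shares were 38.2% of Tfr, 53.6% of Treg, 4.20% of Tfh, 8.30% of other T and 1.49% of B cells. Il7r after thinning was found in 13.0% of Tfr, 44.5% of Treg, 9.86% of Tfh, 40.4% of other T and 1.86% of B cells. UMIs of all 3 IL-2 receptor chains in 1 thinned cell were found in 9.26% of Tfr, 12.6% of Treg, 0.462% of Tfh and 0.959% of other T cells, with overlapping intervals in both pairs. Cells with neither Il2ra nor Il7r made up 64.8% of Tfr, 36.1% of Treg, 88.4% of Tfh and 56.7% of other T cells. Follicular cells in both the Foxp3-positive and the Foxp3-negative gates thus had larger shares of cells with neither alpha chain, with non-overlapping intervals in both pairs.

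**Figure D4:**
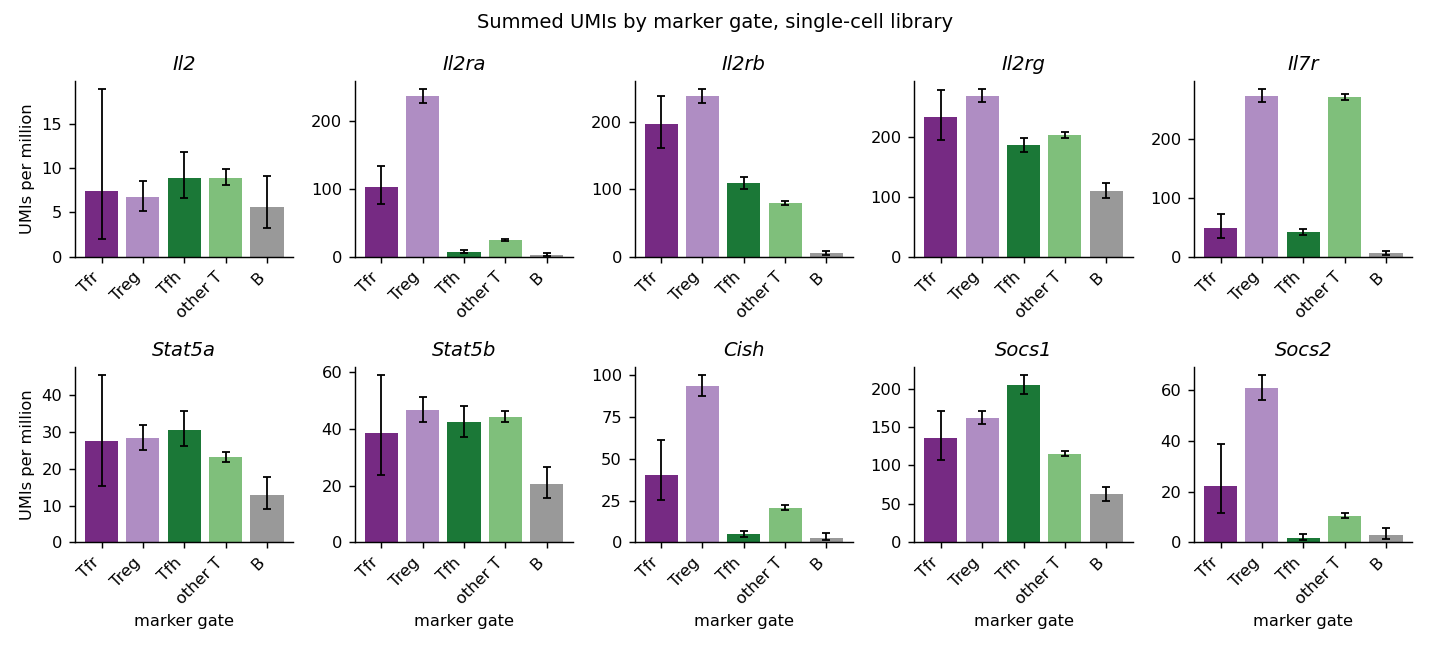
CPM (from UMIs) of each of the 10 genes in the Tfr, Treg, Tfh, other T and B gates, with exact Poisson 95% intervals. Il2ra, Cish and Socs2 were highest in Treg cells, Il7r was high in Treg and other T cells (274 and 272 CPM) and low in Tfr and Tfh cells (49.7 and 42.3 CPM), and Il2 was at a like level in all gates, B cells included.

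Across Treg and other T cells, Il2ra marked Treg cells most. Its ratio of Treg over other T was 9.82 (9.11 to 10.6), that of Socs2 5.75, that of Cish 4.51 and that of Il2rb 3.0. Il7r was level between them (ratio 1.01, 0.967 to 1.05), as was Stat5b (1.05). Tfr over Tfh gave 13.9 (9.10 to 21.3) for Il2ra, but 1.18 (0.758 to 1.75) for Il7r. For Cish and Socs2 no such ratio is given, since the Tfh levels were not detectably above the B cells. The Tfr levels of Cish (40.5 CPM, 25.4 to 61.3) and Socs2 (22.1 CPM, 11.4 to 38.6) lay above the B cell intervals (1.21 to 5.51 CPM for each).

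Within Treg cells, those with a UMI of the effector genes Klrg1, Itgae or Gzmb (845 cells) had more RNA of the receptor genes, Cish and Socs2 than those without (669 cells), and less of Socs1. Il2ra had 285 CPM in effector Treg cells and 169 CPM in Treg cells without effector genes, a ratio of 1.69 (1.54 to 1.85). Cish had 115 and 64.0 CPM (ratio 1.79), Il7r 318 and 213 CPM (ratio 1.49) and Socs2 68.9 and 49.3 CPM (ratio 1.40), each in that order. Il2rb had a ratio of 1.37 and Il2rg one of 1.38. Socs1 had 154 CPM in effector Treg cells and 173 CPM in Treg cells without effector genes, a ratio of 0.891 (0.805 to 0.987). Stat5a was level at 28.3 CPM in both, and Stat5b had a ratio of 0.982 (0.811 to 1.19). Foxp3-positive cells with Cxcr5 and without Pdcd1 (124 cells) had 168 CPM of Il2ra and 216 CPM of Il7r, and so kept more Il7r RNA than the Tfr gate.

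Among Tfh cells, those with a Sostdc1 UMI (105 cells) had even less Il7r RNA than those without (561 cells). Il7r had 20.5 CPM (18 UMIs) in Tfh cells with Sostdc1 and 46.4 CPM in those without, a ratio of 0.441 (0.256 to 0.714). Il2ra had 2 UMIs (2.27 CPM) in Tfh cells with Sostdc1 and 39 UMIs (8.42 CPM) in those without, and the interval of its ratio (0.0316 to 1.04) held 1. Socs1 had 239.8 CPM in Tfh cells with Sostdc1 and 199 CPM in those without, a ratio of 1.21 (1.03 to 1.40). Il2 did not differ detectably between them, with 7.95 CPM (7 UMIs) in Tfh cells with Sostdc1 and 9.06 CPM in those without.

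Among other T cells the axis varied with the marker genes of the cell. Non-cycling cells with 2 or more of the stimulation genes Nr4a1, Nr4a3, Egr1, Egr2 and Egr3 (257 cells) had 39.9 CPM of Cish (31.3 to 50.1), against 23.9 CPM (21.9 to 26.1) in the 4057 other T cells that no marker set placed. Il2rb had 108 CPM (93.5 to 124) in the stimulated and 82.7 CPM (78.9 to 86.7) in the unplaced cells. Il7r had 187 CPM (168 to 208) in the stimulated and 302 CPM (295 to 310) in the unplaced cells. The intervals of the stimulated cells lay above those of the unplaced cells for Cish and Il2rb and below for Il7r; these cells were set side by side after their values were seen. Cells with Tbx21, the Th1 regulator (78 cells), had 257 CPM of Il2rb, near the 268 CPM of effector Treg cells, but 18.5 CPM of Il2ra.

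**Figure D5:**
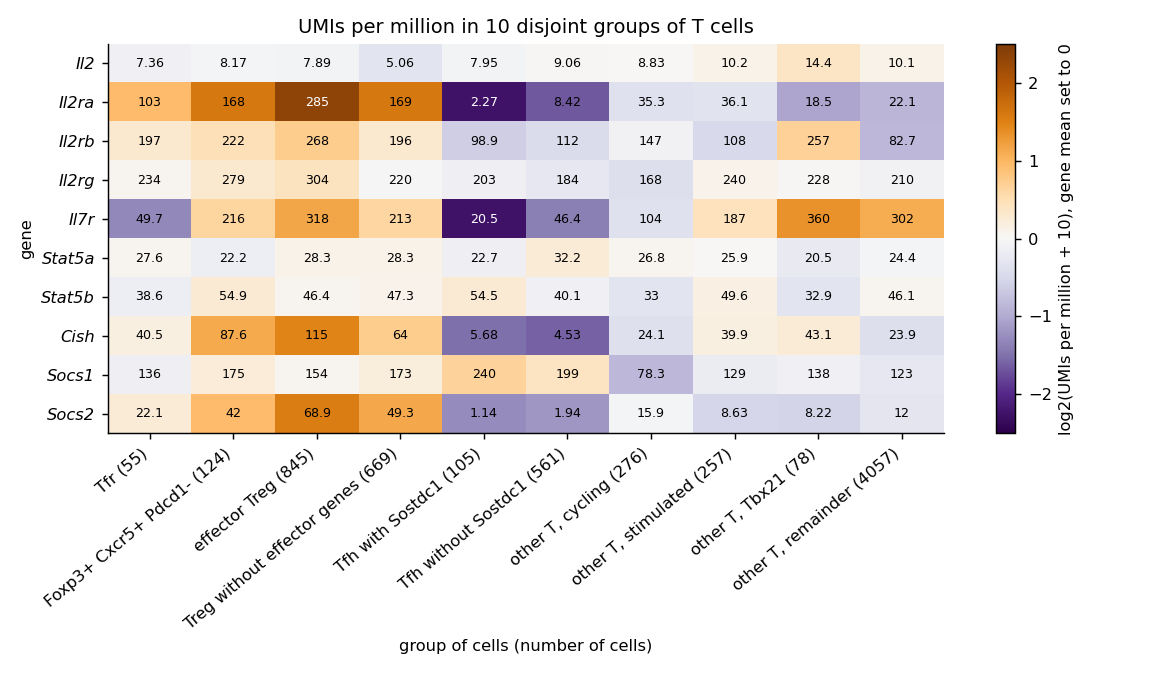
Numbers are CPM (from UMIs) of each gene in 10 disjoint groups of T cells, and the colour is log2(CPM + 10) with the gene's mean over the groups set to 0. Il2ra, Cish and Socs2 are highest in effector Treg cells (285, 115 and 68.9), and Il7r is lowest in Tfh cells with Sostdc1 (20.5).

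Il2 itself was near background in every gate. Its level was 7.36 CPM (2.00 to 18.8) in Tfr, 6.72 CPM (5.17 to 8.58) in Treg, 8.89 CPM (6.57 to 11.7) in Tfh, 8.91 CPM (8.03 to 9.86) in other T and 5.60 CPM (3.20 to 9.09) in B cells. The thinned shares of cells with an Il2 UMI were 1.85% of Tfr, 1.97% of Treg, 2.31% of Tfh, 2.61% of other T and 0.930% of B cells. All these intervals of level overlapped that of the B cells, which is not a test of a difference. The part of free RNA in each gate's summed Il2 level was not tested. Cells with 3 or more Il2 UMIs were rare: 0 of 55 Tfr cells (which allows a share of up to 5.45%), 0 of 1514 Treg cells (up to 0.198%), 2 of 666 Tfh cells, 11 of 6924 other T cells and 0 of 471 B cells. The highest counts in a cell were 10 UMIs in a Tfh cell and 9 in a cell of the other T gate, against 2 in a B cell. The bulk levels of Il2 are on another scale and from other mice, and were not set against these.

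Cells with an Il2 UMI had Il2ra and Cish no more often than other cells and Il7r in a larger share. Over all thinned T cells, Il2ra was found in 15 of 210 cells with Il2 (7.14%, 4.05 to 11.5) and in 920 of 8342 cells without. Cish was found in 8.10% of cells with Il2 and 8.13% of cells without. Il7r was found in 47.1% (40.2 to 54.1) of cells with Il2 and in 38.3% of cells without. How far free Il2 RNA enters these shares was not tested.

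Genes of the same pathways gave less uniform shifts between gates, to be read beside 5.37% higher and 10.8% lower of all genes for Tfr over Treg. For Tfr over Treg, 1 of 11 JAK and adaptor genes was at least 2-fold higher and 0 lower: Jak2 had 88.3 CPM in Tfr and 36.3 CPM in Treg cells, while the PI3 kinase subunit gene Pik3r1 had a ratio of 0.538 and the adaptor gene Shc1 of 1.7. Of 6 gamma chain family genes, 1 was higher and 1 lower. Il21 had 57.0 CPM in Tfr and 1.78 CPM in Treg cells, and in the Tfr gate all of it came from the cells with 1 Foxp3 UMI described above. Il9r, the lower gene, had 0 and 62 UMIs in these gates, and the interval of its ratio (0 to 1.07) held 1. The IL-4 receptor gene Il4ra had a ratio of 0.596. Of 5 other STAT genes, 0 were higher and 1 was lower, Stat2 with a ratio of 0.429; Stat6 had 0.698. Of 12 brake genes, 1 was higher and 2 were lower by size. The phosphatase gene Ptpn11 had 114 CPM in Tfr and 38.6 CPM in Treg cells. The lower 2 rested on few Tfr UMIs. Sh2b3 had 2 and 114 UMIs, and the interval of its ratio (0.0368 to 1.14) held 1. Socs5, named after its values were seen, had 1 and 62 UMIs. Socs4 had a ratio of 0.518.

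In Tfr over Treg, 5.37% of all genes compared were at least 2-fold higher and 10.8% were lower. Of 15 STAT5 targets, 0 were higher and 4 were lower, with a median log2 ratio of -0.41 against 0.01 for all genes. These were Bcl2 (69.9 CPM in Tfr and 151 CPM in Treg cells), the kinase gene Pim1 (158 and 371 CPM), the granzyme gene Gzmb (289 and 668 CPM), and the cytokine gene Osm (1 and 123 UMIs), which was named after its values were seen. Of 20 factors of the Il2 promoter, 1 was higher and 0 lower: Egr2, also named after its values were seen, had 20.2 CPM in Tfr and 8.39 CPM in Treg cells. Nfatc1 had a ratio of 1.88, Jun 0.529 and Foxp3, which defines the gates, 0.543. Bcl6 had a ratio of 5.44 (3.02 to 9.37), with 16 of its 18 Tfr UMIs in the cells with 1 Foxp3 UMI. Against Treg cells of the same Foxp3 class, its ratio was 5.66 (2.87 to 10.8) at 1 Foxp3 UMI. At 2 or more it was 2.26 (0.261 to 8.93), from 2 UMIs in Tfr cells. For Tfh over other T cells, 2 of 15 STAT5 targets were lower and 0 higher, beside 6.41% and 7.96% of all genes compared. The median log2 ratio was -0.24 for the targets and 0.09 for all genes. The 2 were Bcl2 (66.7 and 181 CPM) and Gzmb (8.52 and 47.1 CPM), again chosen after their values were seen. Bcl2 and Gzmb were thus lower in both follicular gates of the single-cell library, as were Cish and Socs2, which were near background in Tfh cells. The bulk libraries hold another contrast, within sorted Tfr cells. There the ratio of the library labelled KO over that labelled WT was 3.73 for Bcl2, 1.82 for Cish, 1.34 for Gzmb and 0.666 for Socs2.

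The genes whose levels ran most alike over the 12 groups were found among 9232 genes, with Pearson's r of log2(CPM + 10) as the measure. The groups share 1 library and differ in size and depth, so r is a description. For Il2ra these were Gbp3 (r = 0.957), an interferon-induced GTPase gene, Entpd1 (0.931), which encodes the ectonucleotidase CD39, and Frmd6 (0.927). For Il7r they were Gbp8 (0.959), Ifi203 (0.954), an interferon-induced gene, and 9930111J21Rik2 (0.952). For Cish they were 2010111I01Rik (0.958), Cul3 (0.949), which encodes a scaffold of ubiquitin ligases, and Hopx (0.939), a homeodomain-only gene known in Treg cells. For Il2 they were 1810058I24Rik (0.929), Myd88 (0.922), the adaptor of Toll-like receptors, and Cited4 (0.909). Entpd1 had 27.8 CPM in effector Treg cells, 12.9 in Tfr cells and 1.5 CPM in Tfh cells without Sostdc1. The Il2 pattern rests on few UMIs per group.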

How the data were processed

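The deposited bulk table holds counts per gene, and the single-cell matrix UMI counts, made by the authors with Cell Ranger (version 2.1.0 per the submitters' processing notes, 3.1.0 per the file headers). The notes also name TopHat, Cufflinks and the builds mm9 and mm10; which was used for the bulk counts was not given in the sources used here. CPM were computed from each library's total over genes. Size was judged on log2(CPM + 1), 2-fold or more, among genes reaching 5 CPM in either library. Intervals are exact (binomial for ratios, Poisson for levels, Clopper-Pearson for shares, 95%).

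Cells needed 500 genes and under 10% mitochondrial UMIs. The scanpy (1.11.5) doublet threshold marked 0 cells, so the 10% highest scores were removed. T cell gates allowed under 3 UMIs each of B cell and of myeloid genes. Thinning took 3000 UMIs per cell. The size step was tested on simulated data. edgeR (4.0.16) gave TMM factors only. The named genes are all 10 members, up to 4 per pathway list by bulk log2 ratio, up to 3 by the Tfr over Treg difference, and 3 per member by likeness. Members and lists were chosen with earlier results of these data known. Some genes and marker-defined groups of cells are not reported here.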

Additional observations from a re-analysis of the deposited data

Results flagged for a closer look

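A single cell that no gate held had 103 Il2 UMIs, a signal in data that the comparisons do not use. It had 35388 UMIs in all, 54 of Cd3 genes and 4 of myeloid genes, which kept it out of the T cell gates. It also had 4 UMIs of Il2rb, 7 of Il2rg, 8 of Stat5a, 6 of Cish and 7 of Tnf. With no limit on B cell and myeloid genes, a setting chosen after seeing the data, it fell in the Tfh gate, whose Il2 level was then 23.5 CPM with the cell and 9.62 CPM without it. In all, 2054 kept cells outside the gates held 321 Il2 UMIs.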

How the results depend on the processing

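With TMM factors, 3 of the 10 genes were at least 2-fold higher in the bulk library labelled KO (Il2, Il2rg and Cish, the added genes at log2 ratios of 1.15 and 1.01), and the median of all genes moved to 0.11; without X, Y and mitochondrial genes in the totals, 2 were (Il2 and Il2rg). The count of 1 lower gene held under all 4 bulk alternatives. Over all genes, TMM gave 414 higher and 688 lower.

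For Tfr over Treg, 2 genes (Il7r and Socs2) were lower without cycling cells, without the limit on B cell and myeloid genes, and as a mean over cells, 2 (Il7r and Il2, with 0 Il2 UMIs in 32 Tfr cells) at under 5% mitochondrial UMIs, and 1 (Il7r) without the 12 Tfr cells with an Il21 or Sostdc1 UMI. The last and the missing limit were added after seeing the data. With thinning the count stayed at 4, with Stat5b (ratio 0.484) in the place of Il2ra. The Il2ra ratio ranged from 0.434 to 0.858 over the alternatives, Cish from 0.432 to 0.771, Socs2 from 0.178 to 0.518 and Il7r from 0.154 to 0.353. For Tfh over other T, 1 gene (Il2) was higher without the limit on B cell and myeloid genes, by 1 cell. No called direction reversed. The cause of each shift was not tested beyond that cell. No paired analysis was possible because the groups compared have 1 library each and no test was made. Depth limits Il2, Stat5a and Socs2 in the Tfr gate to 4, 15 and 12 UMIs.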
